A study of Mus musculus with 9 samples.

Results

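The complement genes *Serping1*, *C1ra*, *C4b*, *Masp1*, *C3*, *Cfb*, *Cd55* and *Cd59a* were followed in mouse embryonic fibroblasts (MEFs) that expressed *CRX* of a placental mammal or of a marsupial. They are 8 of the 22068 genes listed in the count file and were taken from it by symbol. MEFs are connective tissue cells cultured from mouse embryos, here from C57Bl/6 at passage 2. All cells were electroporated with a plasmid that also gave resistance to puromycin, and were kept in puromycin for 5 days. The plasmid carried no homeobox gene (control), the human gene (eutherian CRX) or the opossum gene (metatherian CRX), the introduced proteins being V5-tagged. The sample labels place 48 h of recovery after selection, whereas the methods of the study place 48 h before puromycin and an overnight culture after it. Each of the 3 conditions has 3 libraries. Nothing in the labels says that these came from separate embryos or cultures, so that the p-values measure the spread between these libraries, which may be technical.

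Complement is a set of plasma proteins that act as a cascade of proteases. In the classical pathway C1q binds a target and activates the proteases C1r and C1s, in the lectin pathway MASP proteases take their place, and both pathways cleave C4 and C2 to form an enzyme that cleaves C3. Factor B forms the corresponding enzyme of the alternative pathway, and C1 inhibitor and a group of membrane proteins hold the cascade in check. The liver makes most of the complement in plasma, but fibroblasts also secrete several components.

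The libraries held 54145701 to 94699657 counts on genes. Mouse *Crx* had a count of 0 in the 3 control libraries, 313 to 995 in those with eutherian CRX and 0 to 4 in those with metatherian CRX. Transcripts of the introduced human and opossum genes were not counted separately here. Reads were aligned to the mouse genome, and whether the counts with eutherian CRX came from the introduced human gene was not tested. Eutherian CRX replicate 3 stood apart from its group. The log2 differences between it and the other libraries of its group had an SD of 0.850 and 0.885 over genes, whereas replicates 1 and 2 differed by an SD of 0.15. In the other groups replicate 3 was also the most distant, to a smaller extent, with an SD of 0.551 and 0.444 in control, where replicates 1 and 2 differed by 0.243, and of 0.553 and 0.573 with metatherian CRX, where they differed by 0.254. The 10 fibroblast markers were detected in every library. Their summed level, in CPM (counts scaled to a common library size), was 26740 to 37460 in control, 8075 to 25808 with eutherian CRX and 9237 to 18442 with metatherian CRX. Markers of macrophages, which also make complement, summed to 15.7 to 50.3 CPM in control, 8.86 to 28.6 with eutherian CRX and 6.87 to 14.3 with metatherian CRX, with at most 2 of the 10 markers at 0 in a library. Endothelial markers summed to 11.4 to 18.7 CPM and epithelial ones to 0.492 to 12.7 CPM over all libraries. The part of these cell type markers in the results was not tested. Fold changes between conditions are therefore given with and without eutherian CRX replicate 3.

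Values are CPM with edgeR's TMM factors, or FPKM, which also divides by the exon length and is used to compare genes with each other. The tests are those of edgeR's quasi-likelihood method, from a single model of the 9 libraries in which the replicate number was a block. A gene was called at a Benjamini-Hochberg adjusted p under 0.05. Of the 8 genes, 6 passed the filter on low values, which left 10100 genes. *C4b* and *Cfb* did not reach a mean of 2 FPKM in any condition, and their tests come from a fit of the 14599 genes that passed edgeR's filterByExpr alone. *C3* passed only through eutherian CRX replicate 3, without which its test also comes from the fit with filterByExpr alone.

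The genes differed widely in level. *Masp1*, a protease of the lectin pathway, had the highest mean over the 9 libraries with 90.1 FPKM, above 97.3% of the listed genes. *Cd55*, which speeds the decay of the enzymes that cleave C3, followed with 25.5 FPKM, *Serping1* with 10.5, *Cd59a* with 8.31, *C1ra* with 4.81, *C3* with 1.45, *Cfb* with 0.809 and *C4b* with 0.250. The ranges of libraries did not overlap between *Masp1*, at 52.3 to 118 FPKM, and *Cd55*, at 19.3 to 30.8 FPKM. Nor did they between *Cfb*, at 0.561 to 1.82 FPKM, and *C4b*, at 0.0358 to 0.476 FPKM. All other neighbours in this order overlapped.

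*Serping1* encodes C1 inhibitor, the serpin that inactivates C1r, C1s and the MASP proteases. It lies on the minus strand of chromosome 2 of GRCm38 (mm10), from 84765360 to 84775445, and its merged exons span 1841 bases. It had 24.2, 27.7 and 43.5 CPM in control replicates 1, 2 and 3, then 12.6, 17.3 and 10.4 CPM with eutherian CRX and 17.1, 12.4 and 12.5 CPM with metatherian CRX. Every control library was above every library with either CRX, and control replicate 3 was the highest of all. The mean was 31.8 ± 10.3 CPM in control (SD, n = 3), against 13.4 ± 3.54 CPM for eutherian and 14.0 ± 2.67 CPM for metatherian CRX.

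On the log2 scale *Serping1* differed from control by -1.18 (SE 0.31) with metatherian CRX, with an adjusted p of 0.12 (edgeR), and by -1.24 (SE 0.31) with eutherian CRX, with an adjusted p of 0.23. Neither passed the threshold, at unadjusted p of 0.0066 and 0.0051. Without eutherian CRX replicate 3 the values were -1.13 (edgeR adjusted p of 0.051) and -0.97 (0.46). Without control replicate 3 they were -0.76 (edgeR adjusted p of 0.26) and -0.85 (0.50). DESeq2 put both below the threshold, with adjusted p of 0.0046 for metatherian and 0.0043 for eutherian CRX. Both comparisons use the same control libraries. Metatherian and eutherian CRX differed from each other by 0.06 (SE 0.30), with an edgeR adjusted p of 0.96, and by -0.16 (adjusted p of 0.84) without eutherian CRX replicate 3.

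**Figure D1:**
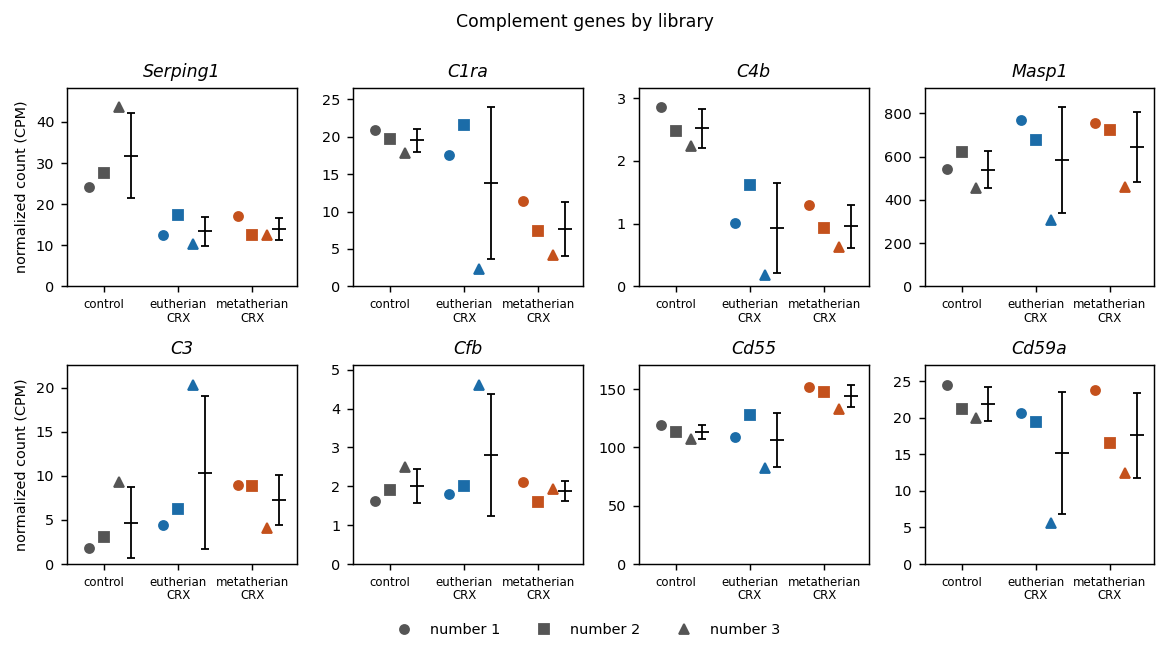
Normalized counts (CPM, linear axes from 0) of the 8 complement genes in each library, with circles, squares and triangles for replicates 1, 2 and 3, and beside each group its mean and SD (n = 3). The 3 control libraries lie above all others for *Serping1* and *C4b*, the 3 metatherian CRX libraries lie above all others for *Cd55*, and eutherian CRX replicate 3 is the lowest library for 6 genes and the highest for *C3* and *Cfb*.

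*C1ra* encodes the protease C1r, which activates C1s within the C1 complex. It lies on the plus strand of chromosome 6, from 124512621 to 124523440. Of its 75-base windows, 42.4% also occur in transcripts of *C1rb* or *Gm18840*, so that reads there can be assigned to more than one gene, although *C1rb* itself had a count of 0 to 7 per library. The control libraries had 20.9, 19.7 and 17.8 CPM of *C1ra*, those with eutherian CRX 17.5, 21.5 and 2.32 CPM, and those with metatherian CRX 11.3, 7.37 and 4.26 CPM. All metatherian CRX libraries were below all control libraries, whereas with eutherian CRX replicate 1 was just below the range of the controls, replicate 2 just above it and replicate 3 far below it.

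The log2 difference of *C1ra* from control was -1.53 (SE 0.55) with metatherian CRX, with an edgeR adjusted p of 0.21. Without eutherian CRX replicate 3 it was -1.42 and passed the threshold, with an adjusted p of 0.026 (edgeR). Without control replicate 3 it was -0.79, with an adjusted p of 0.58 (edgeR). With eutherian CRX *C1ra* differed from control by -0.89 (SE 0.57, edgeR adjusted p of 0.76), and by -0.20 (adjusted p of 0.90) once eutherian CRX replicate 3 was left out. Metatherian against eutherian CRX gave -0.64 (SE 0.55, edgeR adjusted p of 0.71), and -1.22 (adjusted p of 0.078) without that library. It moved to -0.03 without eutherian CRX replicate 2.

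The 250 bases before the start that the RefSeq promoter table gives for *C1ra* and *Cd55* are shown because they are the 2 of the 8 genes with a promoter entry whose libraries did not overlap between metatherian CRX and control. They are RefSeq sequences of GRCm38.p6, read along the strand of the gene, at chr6:124512371-124512620 (plus strand) and chr1:130462745-130462994 (minus strand). For *Cd55* that start lies within the interval that the count file gives for the gene, so that the stretch shown overlaps the gene as counted. Capitals mark TAATCC, the core site that CRX and OTX proteins bind, which was searched on both strands.
C1ra: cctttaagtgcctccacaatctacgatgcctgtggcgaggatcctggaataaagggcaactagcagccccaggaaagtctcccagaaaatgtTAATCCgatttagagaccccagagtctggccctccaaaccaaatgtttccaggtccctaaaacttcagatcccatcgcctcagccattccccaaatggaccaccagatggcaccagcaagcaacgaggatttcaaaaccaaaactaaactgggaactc
Cd55: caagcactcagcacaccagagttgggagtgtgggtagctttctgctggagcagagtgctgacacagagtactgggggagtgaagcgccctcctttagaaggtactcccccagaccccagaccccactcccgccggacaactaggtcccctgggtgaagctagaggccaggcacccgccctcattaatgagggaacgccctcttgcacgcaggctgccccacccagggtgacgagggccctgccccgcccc

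In windows from 250 bases before to 50 bases after the start, TAATCC was found in 7.06% of 32851 promoters and in 4 of the 39 complement genes with an entry, namely *C1ra*, *Cr1l*, *Itgax* and *Mbl2*. In *C1ra* it began 158 bases before the start on the strand of the gene. The interferon element ISRE, searched as TTTC and TTTC with 2 bases between them, was found in *Cd59a* 187 bases before the start on the opposite strand, and in 3.44% of all promoters. A TATAAA box was found in *C3* 14 bases after the listed start, and in 13.6% of all promoters. None of these 3 patterns occurred in the window of *Cd55*. *Serping1*, *C4b*, *Cfb* and *Masp1* had no entry. A match is a description of the sequence and was not tested for binding.

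*C4b* encodes C4, which is cleaved by C1s and MASP proteases and becomes part of the enzyme that cleaves C3. It lies on the minus strand of chromosome 17, from 34728046 to 34743901, and 23.5% of its 75-base windows also occur in its near copy *C4a*. Its counts were low, between 14 and 224 per library. In control it had 2.85, 2.48 and 2.23 CPM, with eutherian CRX 1.01, 1.61 and 0.187 CPM, and with metatherian CRX 1.30, 0.938 and 0.630 CPM. As for *Serping1*, all control libraries were above all libraries with CRX.

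The log2 difference of *C4b* from control was -1.46 (SE 0.51) with metatherian CRX and -1.68 (SE 0.53) with eutherian CRX, with edgeR adjusted p of 0.18 and 0.33. With eutherian CRX replicate 3 left out the values were -1.41, with an edgeR adjusted p of 0.035, and -1.10, with 0.39. Without control replicate 3 the metatherian value was -0.94, with an edgeR adjusted p of 0.48. Metatherian and eutherian CRX differed by 0.22 (SE 0.52, edgeR adjusted p of 0.90), and by -0.31 (adjusted p of 0.68) without eutherian CRX replicate 3. *C4a* had 14 to 50 counts per library, and its log2 differences from control were -0.93 with metatherian and 0.27 with eutherian CRX, or -0.96 and 0.50 without eutherian CRX replicate 3.

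*Masp1* lies on the minus strand of chromosome 16, from 23451785 to 23521073. It had 545, 623 and 454 CPM in control, 768, 678 and 308 CPM with eutherian CRX and 757, 722 and 461 CPM with metatherian CRX. In every condition replicate 3 was the lowest, and the conditions overlapped. The log2 difference from control was 0.22 (SE 0.19, edgeR adjusted p of 0.56) with metatherian CRX and 0.02 (SE 0.19, adjusted p of 0.99) with eutherian CRX. With a single library left out the metatherian value ranged from 0.056, without control replicate 1, to 0.43, without control replicate 3. Leaving out eutherian CRX replicate 3 gave values of 0.24 and 0.26, with edgeR adjusted p of 0.26 and 0.78. Metatherian against eutherian CRX gave 0.20 (SE 0.19, edgeR adjusted p of 0.75), and -0.014 (adjusted p of 0.97) without that library. The difference between libraries numbered 3 and those numbered 1 and 2 was -0.74 (SE 0.17), with an edgeR adjusted p of 0.045. *Masp1* was the only one of the 6 tested genes called in that contrast, where 8.79% of all genes were called. With eutherian CRX replicate 3 left out it was -0.51, with an edgeR adjusted p of 0.080. Of the 9 fits with a single library left out, the call held only in the one without control replicate 3, where the value was -0.94. The range of the adjusted p was 0.033 to 0.12 (edgeR).

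*C3* encodes the central component of the cascade, on which all pathways converge. It lies on the minus strand of chromosome 17, from 57203968 to 57228136. Control replicates 1, 2 and 3 had 1.78, 3.07 and 9.29 CPM, the libraries with eutherian CRX 4.44, 6.30 and 20.3 CPM, and those with metatherian CRX 9.01, 8.83 and 4.04 CPM. The conditions overlapped, since control replicate 3 was above all metatherian CRX libraries. The SD was 85.1% of the mean in control, the largest of the 8 genes.

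Against control, *C3* gave a log2 difference of 1.14 (SE 0.68) with metatherian CRX and 1.14 (SE 0.64) with eutherian CRX, with edgeR adjusted p of 0.39 and 0.72. These tests come from the fit that *C3* entered only through eutherian CRX replicate 3. In the fit of 14599 genes, which has no FPKM filter, 0 of the 8 genes were called in each of the 3 comparisons. Within each replicate number the metatherian differences were 2.34, 1.52 and -1.20, so that number 3 went the other way, and the eutherian ones were 1.31, 1.04 and 1.13. Since *C3* passed the FPKM filter only through a library where it was high, single libraries were left out in the fit with filterByExpr alone. Without metatherian CRX replicate 3 the metatherian difference was 1.93 (edgeR adjusted p of 0.012) and the eutherian one 1.16 (adjusted p of 0.043). Both passed the threshold there, where 7.09% and 1.26% of all genes were called. The lowest metatherian value was 0.45, without metatherian CRX replicate 1, with an edgeR adjusted p of 0.79. It was 0.79 without control replicate 1. Metatherian and eutherian CRX differed by 0.0088 (SE 0.65, edgeR adjusted p of 0.998). Leaving out eutherian CRX replicate 3 gave 0.95 with metatherian CRX, 0.58 with eutherian CRX and 0.36 between them, with edgeR adjusted p of 0.40, 0.88 and 0.82.

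*Cfb* encodes factor B, the protease of the alternative pathway, and lies on the minus strand of chromosome 17, from 34856374 to 34862514. Of its 75-base windows in GENCODE transcripts, 71.6% also occur in *Gm20547*. Whether the annotation used for counting holds *Gm20547* is not known here, so that the level of *Cfb* is uncertain. It had 1.63, 1.91 and 2.49 CPM in control, 1.80, 2.00 and 4.61 CPM with eutherian CRX and 2.10, 1.61 and 1.92 CPM with metatherian CRX. Apart from eutherian CRX replicate 3, all libraries lay within the range of the controls or just below it. The log2 difference from control was -0.04 (SE 0.30, edgeR adjusted p of 0.95) with metatherian CRX and 0.41 (SE 0.30, adjusted p of 0.74) with eutherian CRX. Once eutherian CRX replicate 3 was left out they were -0.068 and 0.04, with edgeR adjusted p of 0.88 and 0.98. The eutherian value was 0.63 without eutherian CRX replicate 1. Metatherian against eutherian CRX gave -0.46 (SE 0.31, edgeR adjusted p of 0.61), and -0.11 (adjusted p of 0.88) without eutherian CRX replicate 3.

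*Cd55* lies on the minus strand of chromosome 1, from 130437196 to 130463012, and 6.76% of its 75-base windows also occur in *Cd55b*. It had 119, 113 and 107 CPM in control, 109, 128 and 82.6 CPM with eutherian CRX and 152, 147 and 133 CPM with metatherian CRX. Its control libraries were the closest of the 8 genes, with an SD of 5.41% of the mean. All metatherian CRX libraries were above all others. Against control the log2 difference with metatherian CRX was 0.34 (SE 0.12), with an edgeR adjusted p of 0.20 and an unadjusted p of 0.027, and it was 0.34, 0.38 and 0.31 within replicate numbers 1, 2 and 3. Against eutherian CRX it was 0.45 (SE 0.12), with an edgeR adjusted p of 0.31 and an unadjusted p of 0.0084. Eutherian CRX differed from control by -0.11 (SE 0.12, edgeR adjusted p of 0.89). Without eutherian CRX replicate 3 the 3 values were 0.35, 0.33 and 0.02, with edgeR adjusted p of 0.083, 0.19 and 0.97.

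*Cd59a* encodes the membrane protein that blocks assembly of the terminal attack complex. It lies on the plus strand of chromosome 2, from 104095801 to 104115413. It had 24.5, 21.2 and 19.99 CPM in control, 20.6, 19.4 and 5.54 CPM with eutherian CRX and 23.8, 16.5 and 12.4 CPM with metatherian CRX. In every condition replicate 3 was the lowest, and both groups with CRX overlapped the controls. The log2 difference from control was -0.39 (SE 0.32, edgeR adjusted p of 0.54) with metatherian CRX and -0.70 (SE 0.33, adjusted p of 0.64) with eutherian CRX. Without eutherian CRX replicate 3 they were -0.35 and -0.27, with edgeR adjusted p of 0.22 and 0.82. Without control replicate 3 they were 0.0041 and -0.37. Metatherian against eutherian CRX gave 0.31 (SE 0.33, edgeR adjusted p of 0.77), and -0.085 (adjusted p of 0.86) without eutherian CRX replicate 3.

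**Figure D2:**
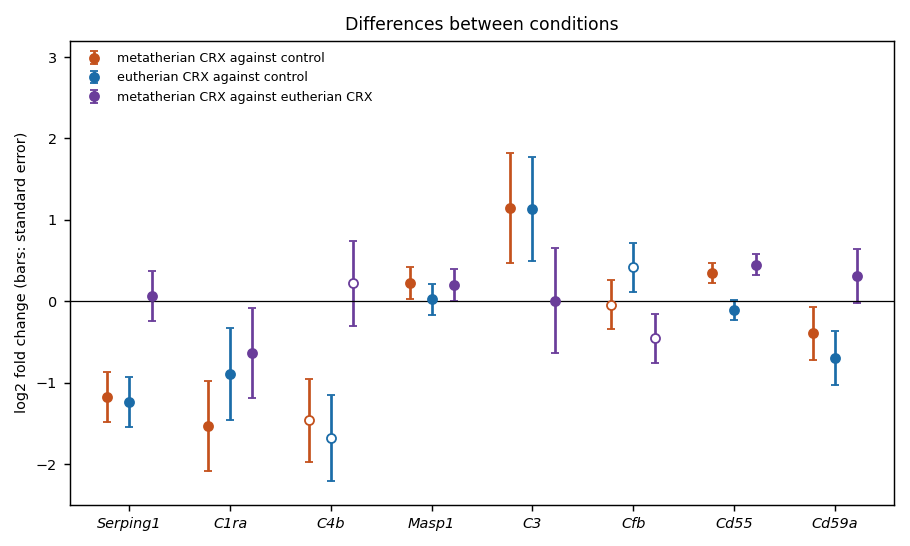
Log2 fold change of each complement gene in the 3 comparisons (edgeR, points) with its standard error (bars), open points being genes tested only in the fit with the weaker filter. The values of *Serping1* lie at -1.18 and -1.24 against control and at 0.06 between metatherian and eutherian CRX, and none of the points passed the adjusted threshold.

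With metatherian CRX, 0 of the 6 tested genes were called against control, where 0.0297% of all 10100 genes were. At an unadjusted p under 0.05, *Cd55* was higher and *Serping1* and *C1ra* lower, and these were also the genes whose libraries did not overlap with control. Over all genes, 9.04% were higher and 10.5% lower by that p, and 11% and 12.3% were higher and lower without overlap. The median log2 difference of the 6 genes was -0.08, and that of all genes was -0.01. It was -0.20 over all 8 genes in the fit of 14599 genes, and -0.35 over the 5 genes tested without eutherian CRX replicate 3. In the fit of 14599 genes, in which all 8 were tested, *C4b* was added to those lower, where 13.7% of all genes were lower without overlap. DESeq2 called 2 of the 6 genes, *Serping1* and *C1ra*, and 9.94% of the 10100 genes. A limma voom fit with library quality weights called 5, which was all but *Cd59a*, and 46.2% of all genes. These include *C3*, which passed the filter only through eutherian CRX replicate 3. With eutherian CRX replicate 3 left out, edgeR called 1 of the 5 genes still tested, *C1ra*, and 8.83% of 10108 genes. With filterByExpr alone it called 3 of the 8, *Serping1*, *C1ra* and *C4b*, all lower, and 8.84% of 14767 genes.

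With eutherian CRX, 0 of the 6 were called against control, where 0.604% of all genes were. *Serping1* was lower at an unadjusted p under 0.05 and did not overlap with control, and these shares were 6.34% and 7.8% over all genes, of which 2.23% were higher by that p. In the fit of 14599 genes *C4b* was lower as well, where 8.94% were lower without overlap. The median log2 difference of the 6 genes was -0.40, against 0.00 for all genes, and it was -0.38 over all 8 genes in the larger fit. The median without eutherian CRX replicate 3 was -0.20 over the 5 genes tested and -0.079 over all 8. DESeq2 called 1 of the 6, *Serping1*, and 3.3% of all genes, and limma voom 2, *Serping1* and *Masp1*, and 16.8% of all genes. With eutherian CRX replicate 3 left out, edgeR called 0 of all genes, and by the unadjusted p 1.95% of them were higher and 5.82% lower. Between metatherian and eutherian CRX, 0 of the 6 and 0% of all genes were called. *Cd55* was higher by the unadjusted p and without overlap, which held for 7.41% and 6.23% of all genes, and 4.13% were lower by that p. DESeq2 called 0 of the 6 in that comparison, where it called 3.14% of all genes, and limma voom called 3, *C1ra*, *C3* and *Cd55*, and 48.3% of all genes. The call of *C3* carries no weight here, since it was among the 6 only through eutherian CRX replicate 3. Leaving out eutherian CRX replicate 3, edgeR called 0 of the 5 and 3.47% of all genes.

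The 8 genes were also set beside 46 other complement genes, of which 29 passed filterByExpr and 6 the filter on FPKM. In the fit of 14599 genes, 0 of the 29 were called in each of the 3 comparisons, where 0.0137% of all genes were with metatherian CRX, 0.623% with eutherian CRX and 0% between them. Against control, 9 were lower and 0 higher with metatherian CRX at an unadjusted p under 0.05, where 10.8% and 9.61% of all genes were, and their median log2 difference was -0.50. With eutherian CRX 3 were lower and 0 higher, where 7.16% and 2.49% of all genes were, with a median of -0.39. Between metatherian and eutherian CRX, 1 was higher and 3 were lower, where 7.41% and 4.26% of all genes were. Leaving out eutherian CRX replicate 3, 2 of the 29 were called with metatherian CRX, *C1s1* and *Clu*, both lower, where 8.84% of all genes were, and the median was -0.50. By the unadjusted p 11 were lower and 0 higher, where 14.6% and 11.3% of all genes were. In the other comparisons 0 were called then, with medians of -0.15 with eutherian CRX and -0.45 between metatherian and eutherian CRX. By the unadjusted p 1 was lower and 0 higher with eutherian CRX, where 6.59% and 2.09% of all genes were. Between metatherian and eutherian CRX 5 were lower and 1 higher, where 9.19% and 10.6% of all genes were.

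*C1s1*, which encodes the protease C1s and lies in the same cascade step as *C1ra*, had 22.7, 17.4 and 32.2 CPM in control, 12.8, 15.6 and 4.87 CPM with eutherian CRX and 14.2, 8.13 and 8.29 CPM with metatherian CRX. All libraries with CRX were below all controls. Its log2 difference from control was -1.31 (SE 0.46, edgeR adjusted p of 0.20) with metatherian CRX and -1.20 (SE 0.47, adjusted p of 0.55) with eutherian CRX. With eutherian CRX replicate 3 left out they were -1.22 and -0.65, with edgeR adjusted p of 0.057 and 0.78 under the FPKM filter, and 0.0498 for the metatherian value with filterByExpr alone.

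The summed FPKM of *C1ra* and *C1s1* was compared with that of *Serping1*, whose protein inhibits both proteases. The ratio was 1.13, 0.845 and 0.712 in control, 1.53, 1.36 and 0.425 with eutherian CRX and 0.935, 0.782 and 0.621 with metatherian CRX. The mean was 0.895 ± 0.213 in control (SD, n = 3), 1.10 ± 0.594 for eutherian and 0.779 ± 0.157 for metatherian CRX. The groups overlapped. The eutherian mean without replicate 3 was 1.44 ± 0.123 (SD, n = 2). Within each replicate number the metatherian ratio was below the control ratio, and the eutherian ratio was above it in numbers 1 and 2 and below it in number 3. In all 3 metatherian CRX libraries both the protease and the *Serping1* values were below those of every control library.

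**Figure D3:**
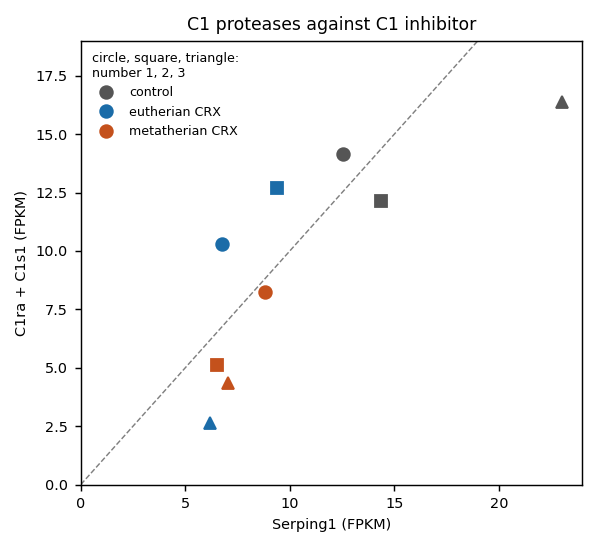
Summed FPKM of the C1 proteases *C1ra* and *C1s1* against FPKM of *Serping1* in each library (linear axes), with circles, squares and triangles for replicates 1, 2 and 3 and a dashed line where both are equal. The 3 metatherian CRX libraries lie at the lower left, between 4.37 and 8.25 FPKM of proteases, and the controls between 12.1 and 16.4 FPKM. Eutherian CRX replicate 3 lies lower and further left than these, at 2.63 FPKM of proteases, and eutherian CRX replicates 1 and 2 lie at 10.3 and 12.7 FPKM.

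The 3 genes for C1q, the recognition unit of C1, were at low level. *C1qa* had counts of 80, 66 and 13 in control, 34, 34 and 6 with eutherian CRX and 0, 4 and 8 with metatherian CRX. A count of 0 allows up to 3. Its log2 difference from control was -3.38 with metatherian CRX (SE 1.18, edgeR adjusted p of 0.18) and -1.19 with eutherian CRX (SE 0.93, adjusted p of 0.76). Leaving out eutherian CRX replicate 3 gave -3.54 and -0.86, with edgeR adjusted p of 0.10 and 0.85. Macrophages are the usual source of C1q, and the 9 tested macrophage markers had a median log2 difference of -1.91 with metatherian and -0.52 with eutherian CRX, or -2.29 and 0.023 without that library. How far these markers account for the C1q values was not tested, and in bulk RNA fewer cells of a type and less RNA per cell cannot be told apart.

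Among the regulators outside the 8 genes, *Clu*, which encodes clusterin, an inhibitor of the terminal complex, had 58.4, 57.4 and 46.1 CPM in control and 36.3, 42.5 and 35.6 CPM with metatherian CRX. That log2 difference was -0.50 (SE 0.12), with an edgeR adjusted p of 0.11, and -0.49 without eutherian CRX replicate 3, where it passed the threshold with an adjusted p of 0.040 (edgeR). *Cr1l*, the membrane regulator Crry, gave -0.04 and 0.06 against control with metatherian and eutherian CRX, and -0.036 and 0.19 without that library. Outside the regulators, the scavenger receptor *Colec12*, the most abundant of the 46 other complement genes with a mean of 77.1 FPKM, gave -0.34 and -0.41, and -0.32 and -0.12 without that library.

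**Figure D4:**
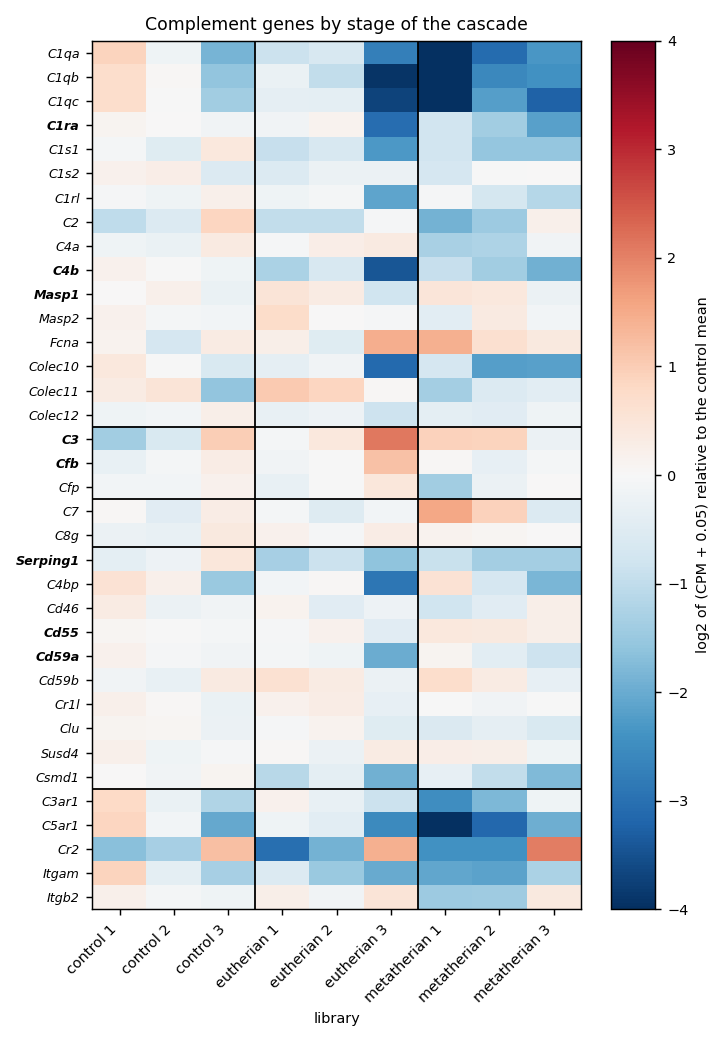
Log2 of the normalized count (CPM + 0.05) relative to the control mean for 36 of the 37 complement genes that passed filterByExpr (rows, the 8 described genes in bold) in the 9 libraries (columns), with colours held at 4 in either direction. Horizontal lines separate recognition and proteases, C3 and the alternative pathway, the terminal components, the regulators and the receptors, and the *C1qa*, *C1qb* and *C1qc* rows are darkest blue in metatherian CRX replicate 1.

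The replicate number moved with several of these genes. Libraries numbered 3 differed from the others by a log2 value of -1.27 for *C1ra*, -1.10 for *C4b*, -0.84 for *Cd59a* and 1.19 for *C3*, with edgeR adjusted p between 0.12 and 0.23, and by 0.03 for *Serping1*. These values moved with single libraries. Between the fit without eutherian CRX replicate 3 and the one without control replicate 3 they went from -0.61 to -1.99 for *C1ra*, from -0.53 to -1.66 for *C4b* and from -0.42 to -1.22 for *Cd59a*. For *C3*, in the fit with filterByExpr alone, they went from 0.64 (edgeR adjusted p of 0.67) without eutherian CRX replicate 3 to 1.93 (adjusted p of 0.0048) without metatherian CRX replicate 3, where 20.3% of all genes were called. DESeq2 called 3 of the 6 genes in this contrast, and 20.1% of all genes. The epithelial markers also moved with the number, at 3.56, 12.7 and 9.13 CPM in the control, eutherian and metatherian libraries numbered 3 and 0.492 to 2.21 CPM in the others. Of the 5 markers *Krt18* passed the FPKM filter, and it was higher in libraries numbered 3 by a log2 value of 4.12 (edgeR adjusted p of 0.014), or 2.98 (adjusted p of 0.0041) without eutherian CRX replicate 3. With metatherian CRX *Krt18* differed from control by 1.98 (edgeR adjusted p of 0.22, unadjusted p of 0.035), and from eutherian CRX by 1.35 (adjusted p of 0.54). Without eutherian CRX replicate 3 it was higher with metatherian CRX than in control by 1.79 (edgeR adjusted p of 0.012) and than with eutherian CRX by 2.93 (adjusted p of 0.016). *Epcam* and *Cdh1* were tested with filterByExpr alone and differed between metatherian CRX and control by 1.45 and -0.080, with edgeR adjusted p of 0.17 and 0.93. Leaving out eutherian CRX replicate 3 gave 1.42 and -0.087, with edgeR adjusted p of 0.13 and 0.91. The part of the epithelial markers in the values of the complement genes was not tested. Of the 29 other complement genes, *C2* (1.52, edgeR adjusted p of 0.012) and the receptor gene *Cr2* (4.75, adjusted p of 0.0072) were higher and *C4bp* (-2.39, adjusted p of 0.015) was lower in libraries numbered 3. In that fit 10.9% of all genes were called. The 3 calls held without eutherian CRX replicate 3, at 1.79, 4.50 and -2.04, with edgeR adjusted p of 0.010, 0.021 and 0.037. Eutherian CRX replicate 3 was the lowest library for 6 of the 8 genes and the highest for *C3* and *Cfb*. The highest library exceeded the lowest 15.2-fold for *C4b*, 11.4-fold for *C3*, 9.28-fold for *C1ra* and 1.84-fold for *Cd55*.

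The genes whose log2 CPM followed that of *Serping1* most closely over the 9 libraries, by the root mean square difference after centring, were *Gstm2* with 0.22, *Mmp23*, *Csrp1*, *Adamts14* and *Slit3*, each of the last 4 with 0.25, where the median of all tested genes was 0.67. *Gstm2* had 6.46, 8.07 and 13.1 CPM in control, 3.48, 4.31 and 2.30 CPM with eutherian CRX and 3.45, 3.23 and 4.32 CPM with metatherian CRX. Among the other 5 of the 8 genes that passed the filter, *Cd59a* was the closest to *Serping1* with 0.59, at rank 1856, and *C3* the farthest with 1.32, at rank 9951. The genes closest to *C3* were *Zfpm1*, *Dnm1*, *Spint2*, *Cdk20* and *C77080* with 0.57 to 0.59, where the median was 1.00.

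Other gene groups tied to these components were counted in the same fit. Of 15 acute phase genes, which liver and other cells induce in inflammation, 4 were tested and 0 called in the 3 comparisons. *Ptx3*, a soluble pattern receptor that binds C1q, had 1145, 817 and 120 CPM in control, 743, 969 and 7.27 CPM with eutherian CRX and 159, 74.7 and 30.5 CPM with metatherian CRX. Its log2 difference from control was -2.56 (SE 0.94, edgeR adjusted p of 0.21) with metatherian CRX, and metatherian and eutherian CRX differed by -1.76 (SE 1.03, adjusted p of 0.57). Eutherian CRX replicate 3 was the lowest of the 9 libraries. Once eutherian CRX replicate 3 was left out it was -2.73 and passed the threshold, with an adjusted p of 0.012 (edgeR), and against eutherian CRX it was -2.77, with 0.029. Of 7 tested coagulation and contact system genes 0 were called, with medians of -0.18 for metatherian and -0.41 for eutherian CRX, or -0.17 and -0.030 without eutherian CRX replicate 3. At an unadjusted p under 0.05 the acute phase list had 1 gene lower and 0 higher with metatherian CRX, and the coagulation list 2 lower and 1 higher. With eutherian CRX these counts were 1 lower and 0 higher, and 3 lower and 1 higher. Between metatherian and eutherian CRX they were 0 lower and 1 higher, and 0 and 0. The shares over all genes by that p are those given above, 10.5% lower and 9.04% higher with metatherian CRX, 6.34% and 2.23% with eutherian CRX and 4.13% and 7.41% between them. With filterByExpr alone, 9 acute phase and 12 coagulation genes were tested and 0 called. By the unadjusted p, 3 acute phase genes were lower and 0 higher with metatherian CRX, 2 and 2 with eutherian CRX, and 2 and 1 between them. For coagulation these counts were 2 and 1, 4 and 1, and 0 and 1. Over all genes 10.8% were lower and 9.61% higher with metatherian CRX, 7.16% and 2.49% with eutherian CRX and 4.26% and 7.41% between them. With eutherian CRX replicate 3 left out, 1 of the 4 acute phase genes, *Ptx3*, and 3 of the 7 coagulation genes were called with metatherian CRX against control, where 8.83% of all genes were.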

How the data were processed

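Poly-A RNA of MEFs was sequenced in 9 libraries. The authors aligned paired reads of 75 bp with STAR to mm10 (GRCm38), counted them with featureCounts and deposited raw counts per gene and library, without normalization or pooling. The annotation, the strand setting and the counting of read pairs are not given in the sources used here, and 62.6% of 25881 counts from 1 to 20 were even. Mates may have been counted separately, in which case the counts given exceed the number of fragments and the bound for a count of 0 is correspondingly uncertain.

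The counts were analysed with edgeR 4.0.16 in R 4.3.3, with limma 3.58.1 (voom) and DESeq2 1.42.0 as alternatives. Genes passed filterByExpr and had more than 2 FPKM on average in 1 or more conditions (10100 of 22068 genes) or filterByExpr alone (14599). FPKM was computed from the counts and the merged exons listed in the count file, over all scaffolds for the filter and on the chromosome of the gene for the levels given. The 75-base windows were taken from GENCODE transcripts. TMM factors lay between 0.960 and 1.11. The quasi-likelihood test used the 9 libraries together, blocked by replicate number. A standard error was taken as the absolute log2 fold change over the square root of F. Differences within a replicate number are of log2 CPM without a prior count. The SDs and correlations between libraries and the closeness of genes to *Serping1* and *C3* use log2 CPM with a prior count of 2. The scripts were tested on simulated data. A count of 0 allows up to 3 counts, which covers counting error only.

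The block follows the statement in the study that samples were prepared in pairs. Deviations from the condition mean correlated above 0.1 in 8 of 9 pairs of libraries with the same number (range 0.0034 to 0.75), and in 5 of 18 pairs with different numbers (up to 0.72). The labels do not say whether the numbers pair the libraries. Replicates of a condition differed beyond sampling noise (chi-square over its degrees of freedom at least 22.2). With 3 libraries against 3 an exact permutation test cannot go below p = 0.1 and was not used.

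The 8 genes, the 46 other complement genes and the other lists were chosen with earlier results of these data known. Named are the 8 genes, other complement genes that passed a test or had 1 of the 6 highest mean FPKM, near copies, and the 5 genes most alike to *Serping1* and *C3*. Also named are the acute phase gene of highest FPKM and the 3 epithelial markers of highest FPKM, from a rule that allowed the 3 highest of each other list. *C1qa*, *C1qb*, *C1qc* and *Colec11* were named after their values were seen. Promoters were RefSeq entries of GRCm38.p6 for 4 of the 8 and 39 of the 54 complement genes. A few genes are not reported here.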

Additional observations from a re-analysis of the deposited data

Results flagged for a closer look

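*Colec11*, which encodes a soluble collectin of the lectin pathway, had 0.834, 0.962 and 0.188 CPM in control, 1.42, 1.24 and 0.683 CPM with eutherian CRX and 0.227, 0.442 and 0.477 CPM with metatherian CRX. On the log2 scale all 3 eutherian CRX libraries were above the mean of the controls and all 3 metatherian CRX libraries below it. The direct log2 difference of metatherian from eutherian CRX was -1.43 (SE 0.58), with an unadjusted p of 0.040 and an adjusted p of 0.40 by edgeR in the fit of 14599 genes. Without eutherian CRX replicate 3 it was -1.56, with an unadjusted p of 0.062 and an edgeR adjusted p of 0.28. Both conditions were compared with the same controls, and counts ranged from 13 to 113 per library.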

How the results depend on the processing

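Calls depended on the test. In the counts below, *C3* was among the 6 tested genes only through eutherian CRX replicate 3. With metatherian CRX against control, the count of 0 of the 6 tested genes became 2 with DESeq2, 5 with limma voom, 3 without all libraries numbered 3, where 22.2% of all 10025 genes were called, and 3 at an unadjusted p, and 0 to 1 with a single library left out (*C1ra* without eutherian CRX replicate 3, *C3* without metatherian CRX replicate 3). The count for the other complement genes, 0, became 2, 4, 3 and 2, and 0 to 1. With eutherian CRX against control, 0 of the 6 became 1 with DESeq2, 2 with voom and 1 at an unadjusted p, and 0 others became 2 with voom and 2 at an unadjusted p. Between metatherian and eutherian CRX, 0 became 3 with voom, 2 without libraries numbered 3, where 22.5% of all genes were called, and 1 at an unadjusted p, and for the others 1 with DESeq2, 3 with voom and 2 under each of the latter. In the contrast of number 3, 1 became 3 with DESeq2, where 20.1% of all genes were called, and 4 at an unadjusted p, and 0 to 1 with a library left out. For the others 0 became 3 with filterByExpr only, 3 with no filter, 1 with DESeq2, 1 at an adjusted p under 0.1, 2 at an unadjusted p and 0 to 2 with a library left out. For this contrast the shares of all genes at the unadjusted p, at an adjusted p under 0.1 and with no filter are not given. Those counts therefore say nothing particular about complement genes.

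Without the replicate block *Serping1* differed from control by -1.19 (edgeR adjusted p of 0.18) with metatherian CRX, and 0 of the 6 tested genes were called in each of the 3 comparisons, so that no call of the comparisons changed with the pairing. Numbers mark no pairs that the labels state.

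Of 560 alternative fold changes of the 8 genes, 33 changed sign, 23 of them with 1 library left out. These were *Cfb* against control with metatherian CRX (0.083 with voom, 0.071 without libraries numbered 3, -0.34 to 0.21 with a library left out), *Cd59a* (-0.58 to 0.0041) in that comparison, and *Masp1* (-0.15 to 0.26) and *Cd55* (0.019 without libraries numbered 3, -0.25 to 0.020) with eutherian CRX. Between metatherian and eutherian CRX they were *C4b* (-0.22 without libraries numbered 3, -0.31 to 0.90), *Masp1* (-0.014 to 0.38), *C3* (-0.50 without the block, -0.031 with upper-quartile scaling, -0.20 with only the 6 libraries compared, -0.74 to 0.77), *Cfb* (0.020 with voom), *Serping1* (-0.0040 without libraries numbered 3, -0.23 to 0.37) and *Cd59a* (-0.0044, -0.085 to 0.62). In the contrast of number 3 it was *Serping1* (-0.38 to 0.29). None of these values was called in the reported fit, and the cause was not tested. After the data were seen, filterByExpr alone was also combined with a library left out, in which 11 of 56 values changed sign, 7 of them of *C3* between metatherian and eutherian CRX (-0.090, -0.0034 and -0.18 without control replicates 1, 2 and 3, -0.31 and -0.15 without eutherian CRX replicates 1 and 2, -0.73 and -0.27 without metatherian CRX replicates 1 and 2), 1 each in that comparison of *Cd59a* (-0.088), *Masp1* (-0.018) and *Serping1* (-0.17), and 1 of *Cd55* with eutherian CRX against control (0.031), the last 4 without eutherian CRX replicate 3. The FPKM filter was also run with the exon length on the chromosome of the gene, which kept 10177 genes and 6 of the 8. The low counts of *C4b*, *Cfb* and C1q limit what these libraries can show.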
